A study of Rattus norvegicus with 3 samples.

Results

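The interleukin-23 to interleukin-17 axis was followed through 7 genes: Il23a and Il12b, which encode the chains of IL-23, its receptor chain Il23r, the ligands Il17a and Il17f, and the IL-17 receptor chains Il17ra and Il17rc. They were picked by gene symbol as 7 of the 32883 features in the count matrices, and raw unique molecular identifiers (UMIs, 1 per captured RNA molecule) were read in cell classes of each library. All 7 had UMIs in every library. The choice was made with earlier results of these libraries known, with Il23a assigned to neutrophils and Il17a to T cells, so the levels of these genes in those classes are a description.

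IL-23 is a heterodimer of the p19 chain (Il23a) and the p40 chain (Il12b), and p40 is shared with IL-12. It is made mainly by activated myeloid cells and acts on lymphocytes that carry the IL-23 receptor, a complex of Il23r and Il12rb1, where it sustains IL-17 production through JAK2, TYK2 and STAT3. IL-17A and IL-17F bind a receptor of Il17ra and Il17rc on fibroblasts, keratinocytes and other cells, and the adaptor Act1 (Traf3ip2) then switches on neutrophil-attracting chemokines, antimicrobial proteins and cytokines. In skin this axis is known for defence against bacteria and fungi, for psoriasis and for persistent inflammation.

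Single-cell RNA sequencing had been run on wounds of male wild type Sprague-Dawley (SD) rats made diabetic with streptozotocin, which destroys pancreatic beta cells. The 3 groups, 1 library each, were wounds dressed with a carbon monoxide-releasing gel of hyaluronic acid (CO hydrogel), wounds dressed with the gel alone (hydrogel), and untreated wounds. All rats had received 65 mg/kg streptozotocin into the abdomen at 7 to 9 weeks of age and had blood glucose above 16.7 mM. The full-thickness wounds were 15 mm across, the specimens came from rats of 8 to 10 weeks on day 7, and the cells were released with an epidermis dissociation kit followed by red cell lysis. The texts that describe the samples did not all give the same age for the rats. The comparison asks how the gas-releasing gel, the gel alone and no treatment differ in the wound's cells. The number of animals behind each library was not given in the sources used here. With 1 library a group there is no replicate and no test: intervals are exact 95% intervals that cover counting error only, and differences between animals, wounds and preparations cannot be told apart from treatment.

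The matrices held 15376 cell barcodes for CO hydrogel, 15442 for hydrogel and 12883 for untreated, where the labels expected about 8000 cells each; after filtering, 12659, 12069 and 10550 cells remained, at a median depth of 6073, 5951 and 2644 UMIs a cell. Neutrophil-like cells made up 3.52%, 16.5% and 53.1% of the kept cells in the CO hydrogel, hydrogel and untreated libraries, and T or NK-like cells 3.30%, 4.26% and 1.01%. Levels are UMIs per 1000000 UMIs of a class or cluster (CPM). Relative to untreated, the median gene of the neutrophil-like class stood 0.80 higher in CO hydrogel and 0.88 higher in hydrogel on the log2 scale, so that class's log2 ratios are also given relative to this median. Between CO hydrogel and hydrogel it was 0.10 there, and in the other classes with a ratio it lay between -0.11 and 0.19 in each pair of libraries. Between 278 and 456 cell barcodes occurred in both libraries of a pair. Such cells were at most 0.674% of the neutrophil-like and 2.80% of the T or NK-like class in any library, but 14.3% of the fibroblast-like (187 of 1307) and 22% of the keratinocyte-like cells of the untreated library.

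The sequences upstream of the genes that T cells used are shown because the lymphocyte members shared a class. RefSeq promoters of the rat assembly GRCr8 were found for 5 of the 7 members. The 250 bases before the start of Il17a (chr9:30640594-30640843, plus strand), Il17f (chr9:30697919-30698168, minus strand) and Il23r (chr4:98003760-98004009, minus strand) are given 5′ to 3′, with AGGTCA or its reverse complement TGACCT in capitals.
Il17a: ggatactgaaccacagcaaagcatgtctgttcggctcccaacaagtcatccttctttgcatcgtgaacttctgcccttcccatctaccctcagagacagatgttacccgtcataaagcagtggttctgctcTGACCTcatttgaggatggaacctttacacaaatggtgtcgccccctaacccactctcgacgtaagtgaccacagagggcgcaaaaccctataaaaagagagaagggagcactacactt
Il17f: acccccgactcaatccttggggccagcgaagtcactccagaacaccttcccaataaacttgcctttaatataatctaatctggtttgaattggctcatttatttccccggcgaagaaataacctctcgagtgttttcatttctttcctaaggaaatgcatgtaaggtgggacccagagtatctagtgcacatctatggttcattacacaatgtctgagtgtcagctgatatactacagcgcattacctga
Il23r: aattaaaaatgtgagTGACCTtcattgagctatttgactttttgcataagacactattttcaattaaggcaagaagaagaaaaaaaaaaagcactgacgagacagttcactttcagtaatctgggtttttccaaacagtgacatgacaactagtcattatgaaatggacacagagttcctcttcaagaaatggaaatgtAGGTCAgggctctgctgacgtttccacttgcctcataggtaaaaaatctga
AGGTCA is the core recognised by ROR nuclear receptors, the family of Rora. Searched on both strands, it had 1 match upstream of Il17a, at -119 to -114, 2 upstream of Il23r, at -235 to -230 and -51 to -46, and none in the Il17f window. These 6 letters were present in 14.07% of the 33465 rat promoters of the same length, so a match is a description of the letters, not a binding site.

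Il23a, the p19 chain of IL-23, had its highest class level in neutrophil-like cells, and that level was lowest in CO hydrogel. That class held 70 Il23a UMIs in CO hydrogel, 1676 in hydrogel and 8714 in untreated, or 25.3%, 47.8% and 87.9% of the Il23a UMIs of all kept cells. The level was 118 (92.1 to 149) in CO hydrogel, 458 (436 to 480) in hydrogel and 750.2 (735 to 766) in untreated, and the 3 intervals did not overlap. The log2 ratio was -1.96 (-2.32 to -1.61) for CO hydrogel over hydrogel, or -2.06 relative to the median gene, and 5.0% of 6077 genes were at least 2-fold lower and 5.63% at least 2-fold higher in that pair. It was -2.67 (-3.03 to -2.33) for CO hydrogel over untreated and -0.71 (-0.79 to -0.64) for hydrogel over untreated, or -3.46 and -1.59 relative to the median gene. The share of genes at least 2-fold lower in those pairs was 4.37% and 2.46%. Without the cells that share a barcode the 3 ratios were -1.95, -2.66 and -0.71.

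**Figure D1:**
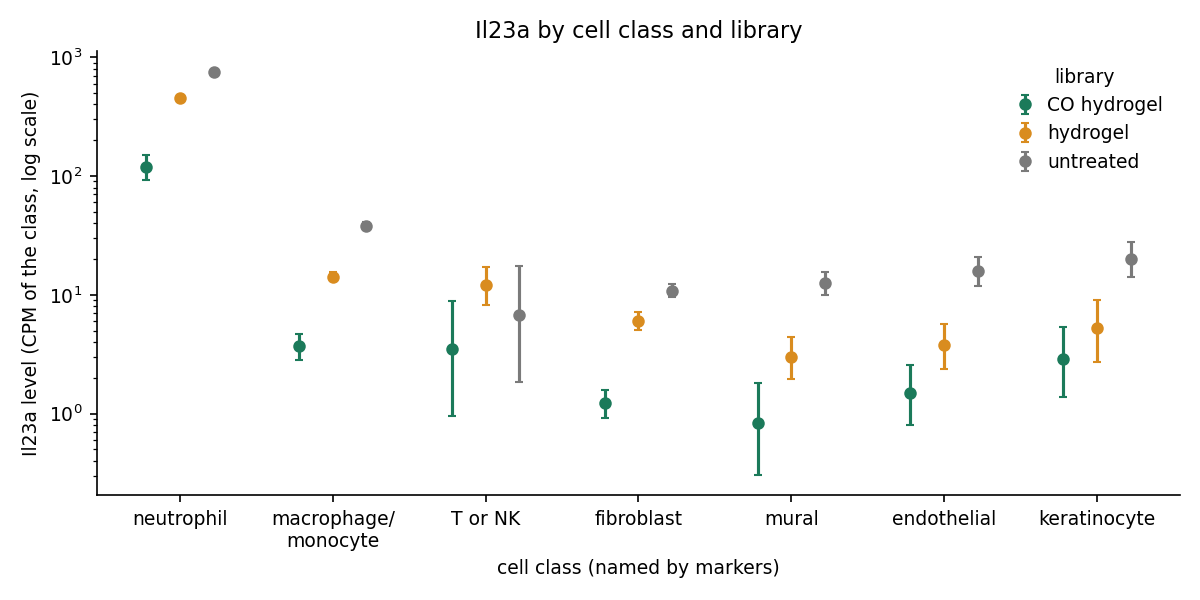
Il23a level in CPM of each cell class (log scale) by library, with exact Poisson 95% intervals. Neutrophil-like cells stand above the other named classes in each library, at 118, 458 and 750.2 CPM in CO hydrogel, hydrogel and untreated.

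Both the share of Il23a-positive neutrophil-like cells and the number of molecules in each differed. A UMI of Il23a was found in 35 of 445 cells (7.87%) in CO hydrogel, 369 of 1990 (18.5%) in hydrogel and 1409 of 5606 (25.1%) in untreated. With every cell thinned to 1000 UMIs which left out 88, 93 and 207 shallower cells, the shares were 6.72%, 14.8% and 19.8%, so their order was kept at equal depth. Positive cells carried a mean of 2.0, 4.54 and 6.19 Il23a UMIs. These means were taken at each cell's own depth, and the median depth of the class was 1309, 1786 and 1954 UMIs. The untreated library thus had the highest share of positive cells and, without correction for depth, the most Il23a UMIs per positive cell.

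The neutrophil-like class was made of different clusters in the 3 libraries, found with the 7 genes left out of the clustering, since Il23a leads cluster 17. Cluster 16, with Csf3r (the G-CSF receptor) among its leading genes, held 89.9% of the class in CO hydrogel, 82.1% in hydrogel and 17.95% in untreated. Cluster 17, with the chemokines Ccl3 and Cxcl3 among its leading genes, held 4.27%, 13.8% and 57.6%. Cluster 18, led by the granule genes Retnlg and Mmp8, held 5.84%, 4.17% and 24.5%. Most untreated neutrophil-like cells were therefore in a cluster that held few cells of the gel libraries.

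Inside single clusters, hydrogel and untreated were close or in the other order. CO hydrogel was lowest in cluster 16, the only cluster of the class with at least 50 of its cells. In cluster 17, Il23a stood at 1150.0 CPM (1059 to 1247) in hydrogel and 1169 (1143 to 1195) in untreated, a log2 ratio of -0.02 (-0.15 to 0.10); CO hydrogel had 12 UMIs in 19 cells. In cluster 18 it stood at 156 CPM in hydrogel and 143 in untreated (log2 ratio 0.12, -0.47 to 0.65), and CO hydrogel had 1 UMI in 26 cells. In cluster 16 the levels were 108 CPM in CO hydrogel, 358 in hydrogel and 258 in untreated. There the log2 ratio was -1.73 (-2.14 to -1.34) for CO hydrogel over hydrogel, -1.25 (-1.68 to -0.86) for CO hydrogel over untreated and 0.47 (0.31 to 0.63) for hydrogel over untreated, so the gel alone was above untreated in this cluster. Cluster 24, led by the interferon-induced genes Rsad2 and Isg15, stayed unnamed because its cells were shallow for their library (median relative depth 0.313, against 0.331 in cluster 16) and no neutrophil marker was among its 10 leading genes. It nevertheless had 7 neutrophil markers in at least 20% of cells, and in hydrogel Csf3r stood at 89.1% and S100a9 at 52.6% of the neutrophil-like level. It held 28.6% of the Il23a UMIs of hydrogel and carried Il23a at 652 CPM in 817 hydrogel cells and 412 CPM in 73 untreated cells. Its 12 cells in CO hydrogel, too few for a level, held 22 Il23a UMIs, against 1004 in the hydrogel cells and 60 in the untreated cells.

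**Figure D2:**
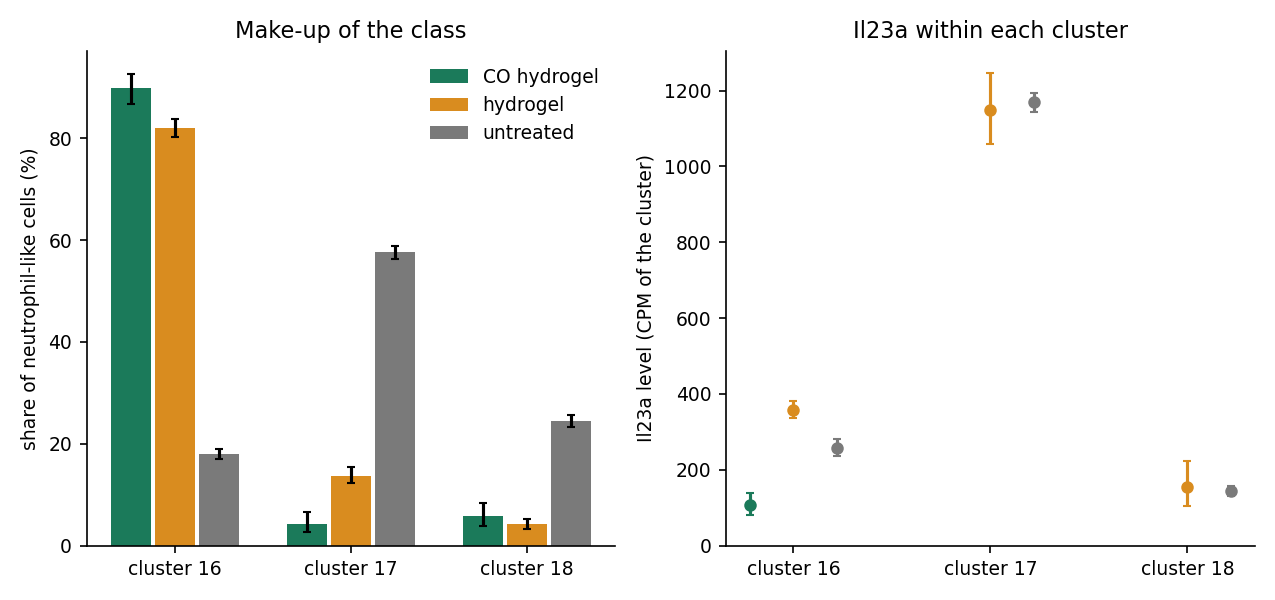
Left, the share of neutrophil-like cells (%) in clusters 16, 17 and 18 by library with exact binomial 95% intervals; right, the Il23a level (CPM of the cluster) with exact Poisson 95% intervals for clusters of at least 50 cells in a library. Cluster 17 holds 57.6% of the class in untreated, and its Il23a level is 1150.0 CPM in hydrogel and 1169 CPM in untreated.

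Il23a was also seen in macrophage or monocyte-like cells, most of all in their Fcnb cluster, where the libraries differed less. The macrophage or monocyte-like class averaged 3.68 CPM in CO hydrogel, 14.2 in hydrogel and 38.0 in untreated, with log2 ratios of -1.95 for CO hydrogel over hydrogel, -3.37 for CO hydrogel over untreated and -1.42 for hydrogel over untreated, where 3.65%, 3.43% and 2.9% of all genes were at least 2-fold lower and 6.95%, 10.6% and 7.79% higher. Over 11 alternatives of processing these ratios kept their sign, but their size varied. They ranged from -5.44 to -1.44, from -6.54 to -2.54 and from -1.60 to -1.09. The class was made of different clusters: cluster 14 held 42.8%, 8.20% and 16.03% of it, cluster 6 held 9.61%, 29.0% and 35.3%, and cluster 8 held 7.24%, 29.5% and 10.4%. In cluster 7 the log2 ratio for hydrogel over untreated was 0.02 (-0.86 to 0.99). Cluster 9 of that class, led by Fcnb, a ficolin of monocytes, held 41.8, 60.9 and 64.2 CPM, and its log2 ratio was -0.54 (-0.9997 to -0.11) for CO hydrogel over hydrogel and -0.62 (-1.07 to -0.19) for CO hydrogel over untreated. These were 35.4%, 13.3% and 8.55% of the neutrophil-like level in CO hydrogel, hydrogel and untreated, while the 7 neutrophil markers set beside it ranged from 0.790% (Cxcr2) to 21.1% (Trem1) in CO hydrogel, 1.54% (Cxcr2) to 15.6% (Trem1) in hydrogel and 3.03% (Cxcr2) to 19.4% (G0s2) in untreated. Il23a was thus above all 7 in CO hydrogel, but not in hydrogel or untreated. In fibroblast-like cells, which are not known as a source of p19, Il23a stood at 1.22, 6.04 and 10.9 CPM, or 1.03%, 1.32% and 1.45% of the neutrophil-like level, and 0.622%, 2.92% and 5.97% of these cells had a UMI. Of the same 7 markers, Il1r2 stood there at 3.39%, 1.98% and 1.97% of its neutrophil-like level, and the other 6 at 0 to 0.0787%, 0.336 to 0.510% and 0.705 to 0.953%; the part of free RNA in these values was not tested. The neutrophil-like class held 11, 10 and 11 of the 12 neutrophil markers in CO hydrogel, hydrogel and untreated, with Cxcr1 at 0 in all 3 libraries and a summed level of 90470.0, 77340.0 and 64800.0 CPM.

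Il12b, the p40 chain that IL-23 also needs, was rare and lay in other cells. It had 22 UMIs in 3 cells of CO hydrogel, 51 UMIs in 28 cells of hydrogel and 16 UMIs in 2 cells of untreated. In CO hydrogel, 90.9% of the UMIs came from 1 cell. The CO hydrogel and untreated UMIs all lay in cluster 15, which is led by the dendritic genes Ccl22, Cd207 and Clec9a and stays unnamed, at 12.2 CPM in CO hydrogel and 16.1 CPM in untreated, against 1 UMI in hydrogel. In hydrogel 43 of the 51 UMIs were in macrophage or monocyte-like cells, of which 20 were positive, and that class had none in CO hydrogel or untreated. With 3 counts taken for the 0, Il12b was there at least 6.24-fold lower in CO hydrogel than in hydrogel, and at least 6.47-fold higher in hydrogel than in untreated. Cluster 6 held 32 of the hydrogel UMIs and made up 9.61%, 29.0% and 35.3% of that class in CO hydrogel, hydrogel and untreated. Within cluster 6 the same bounds were 1.505-fold and 5.81-fold. No cell carried a UMI of both chains, among 139, 875 and 1777 Il23a-positive cells in CO hydrogel, hydrogel and untreated, which at so few Il12b UMIs says little of single cells.

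Among companions of IL-23 in neutrophil-like cells, several inducers and partners were lower with either gel. Of 16 listed genes known to go with or induce IL-23, 14 could be measured for CO hydrogel over hydrogel, and 0 were at least 2-fold higher and 1 lower, beside 5.63% and 5.0% of all genes. All 16 could be measured against untreated, with 0 higher and 4 lower for each gel, where 40.4% and 43.2% of all genes were at least 2-fold higher for CO hydrogel and hydrogel, and 4.37% and 2.46% lower. The list's median log2 ratio was -0.22 for CO hydrogel over hydrogel, beside 0.10 for all genes, -0.52 for CO hydrogel over untreated, beside 0.80, and -0.36 for hydrogel over untreated, beside 0.88. Il1a, an alarmin, stood at 20.3 CPM in CO hydrogel, 63.1 in hydrogel and 196 in untreated. Il6, a cytokine that primes IL-17 cells, stood at 113, 119 and 462 CPM. Il1b, a strong inducer of type 17 responses, stood at 13340.0, 18650.0 and 24160.0 CPM, a log2 ratio of -0.86 for CO hydrogel over untreated. Ebi3, the partner chain of IL-27 in the same cytokine family, stood at 140.0, 253 and 508 CPM. Of 10 other genes of the IL-12 family and its receptor chains, 4, 3 and 6 could be measured in neutrophil-like cells for CO hydrogel over hydrogel, CO hydrogel over untreated and hydrogel over untreated, with 0, 0 and 1 at least 2-fold higher and 0, 1 and 1 lower, beside 5.63%, 40.4% and 43.2% of all genes higher and 5.0%, 4.37% and 2.46% lower. Their median log2 ratios were 0.02, 0.13 and 0.20, and those of all genes 0.10, 0.80 and 0.88. Stat3 and Jak2, which carry the signal of the IL-23 receptor, lay within 0.21 of 0 on the log2 scale in each pair.

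Il23r, the receptor chain specific to IL-23, was confined to 1 T-cell cluster within the T or NK-like class, at low counts. It had 26 UMIs in 24 cells of CO hydrogel, 42 UMIs in 32 cells of hydrogel and 6 UMIs in 5 cells of untreated, all in cluster 20, led by Cd3d, Cd3e and Icos, and none in cluster 22, led by Nkg7 and Prf1. The class level was 22.7 CPM in CO hydrogel, 15.8 in hydrogel and 10.2 in untreated. The log2 ratio was 0.52 (-0.24 to 1.26) for CO hydrogel over hydrogel, 1.16 (-0.15 to 2.73) for CO hydrogel over untreated and 0.64 (-0.60 to 2.16) for hydrogel over untreated, and all 3 intervals included 0. Ccr6, the chemokine receptor of type 17 cells, was detected in 18 of 24, 23 of 32 and 4 of 5 Il23r-positive cells, and Nkg7, a cytotoxic granule gene, in none. The other chain of the receptor, Il12rb1, had 1, 8 and 0 UMIs in the class, too few to compare.

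Il17a, the main type 17 cytokine, lay in the same T-cell cluster and was highest in hydrogel. The T or NK-like class held 443 Il17a UMIs in CO hydrogel, 3253 in hydrogel and 385 in untreated, of 488, 3402 and 482 in all kept cells. The level was 387 (352 to 425), 1226 (1184 to 1269) and 653 (589 to 721), and the intervals did not overlap. The log2 ratio was -1.66 (-1.81 to -1.52) for CO hydrogel over hydrogel, where 6.65% of 8336 genes were at least 2-fold lower. It was -0.75 (-0.95 to -0.55) for CO hydrogel over untreated and 0.91 (0.76 to 1.07) for hydrogel over untreated, both under 2-fold. Without cells that share a barcode these were -1.66, -0.73 and 0.93. Cluster 20 alone, which held 64.4%, 48.8% and 70.1% of the class, gave 554, 2138 and 850.4 CPM in CO hydrogel, hydrogel and untreated.

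Between CO hydrogel and hydrogel, Il17a differed more in the number of molecules per positive cell than in the share of positive cells. Il17a was detected in 52 of 418 T or NK-like cells (12.4%) in CO hydrogel, 76 of 514 (14.8%) in hydrogel and 16 of 107 (15.0%) in untreated, and the binomial intervals, 9.43 to 15.99%, 11.8 to 18.2% and 8.80 to 23.1%, overlapped. Thinned to 1000 UMIs per cell, with 23, 9 and 3 shallower cells left out, the shares were 7.85%, 10.7% and 5.77%. At 2000 UMIs they were 14.6%, 12.2% and 6.45%. The order of the gel libraries thus depended on the depth chosen, and untreated was lowest at both depths. In fibroblast-like cells, which are not a source of IL-17A, 0.120%, 1.03% and 0.383% of cells had an Il17a UMI, at median depths of 9169, 13459 and 16285 UMIs against 2401, 3925 and 4571 in T or NK-like cells. In untreated, 1 fibroblast-like cell held 87 Il17a UMIs, or 94.6% of that class's 92, and the class held 19.1% of all Il17a UMIs of the library. Positive cells carried a mean of 8.52, 42.8 and 24.1 UMIs and a median of 3.5, 17 and 3.5, and 11, 44 and 5 of them held at least 10. These counts were taken at each cell's own depth, and the median depth of positive cells was 3410, 6355 and 8145 UMIs. The untreated level rested on few cells: 5 cells held 93.5% of its Il17a UMIs, against 47.9% in CO hydrogel and 38.2% in hydrogel. After thinning, the log2 ratio for CO hydrogel over untreated became 0.33, so the direction of that pair depends on how cells are weighted, while hydrogel stayed highest.

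**Figure D3:**
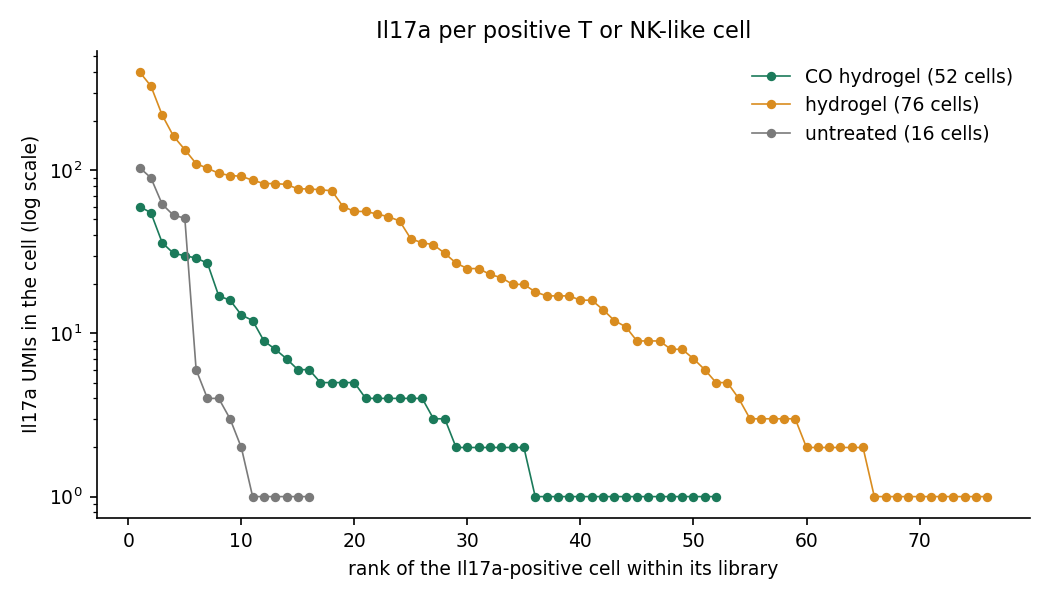
Il17a UMIs (log scale) in each Il17a-positive T or NK-like cell, ranked within its library (52 cells in CO hydrogel, 76 in hydrogel, 16 in untreated). The hydrogel curve lies above the CO hydrogel curve along its length, with highest cells of 401 and 60 UMIs, and the untreated curve drops to 51 UMIs in its 5th cell and 6 in its 6th.

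Il17a-positive cells mostly carried T-cell genes, and seldom Nkg7. Cd3e, a chain of the T-cell receptor complex, was detected in 44 of 52 positive cells in CO hydrogel, 68 of 76 in hydrogel and 11 of 16 in untreated. Ccr6 was detected in 31, 51 and 11 of them, and Nkg7 in 2, 3 and 0. Prf1, the pore protein perforin, was detected in 11, 20 and 2 of them, or 21.2%, 26.3% and 12.5%. Its share was higher among Il17a-negative cells, at 44.3%, 66.7% and 36.3%. Il23r was detected in 11, 19 and 3 of the positive cells, or 21.2%, 25.0% and 18.8%, beside 3.55%, 2.97% and 2.20% of Il17a-negative cells. Positive cells were also deeper than negative cells of the class, with medians of 3410, 6355 and 8145 UMIs against 2300, 3723 and 4486, which raises the chance of detecting any gene.

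By a rule on size in all 3 libraries, 10 of 3176 genes were named as higher in Il17a-positive than in Il17a-negative T or NK-like cells. Il17f came first, with a log2 ratio of 4.35 in CO hydrogel, 6.54 in hydrogel and 7.04 in untreated, where negative cells had none and the value depends on the count added. Adam18, a disintegrin family gene known from testis, followed with 4.64, 5.01 and 2.34. Nus1, a subunit of the enzyme that makes dolichol, gave 1.86, 1.89 and 1.78. Cdc42ep3, an effector of the GTPase CDC42, gave 1.56, 1.94 and 1.41. The others were Eno3, Pxdc1, Tdrkh, Lsm2, Mtss1 and Sapcd2. Blk, a kinase of IL-17-producing gamma-delta T cells in mice, was higher in CO hydrogel and hydrogel (3.72 and 3.80) and had 2 UMIs in positive and 0 in negative untreated cells. Cells were sorted here by Il17a detection itself, so these values describe the libraries and carry no test.

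Il17f, which pairs with IL-17A and shares its receptor, lay mostly in Il17a-positive cells within the T or NK-like class. Its level in that class was lowest in CO hydrogel. The T or NK-like class held 62 UMIs in 14 cells of CO hydrogel, 358 in 25 cells of hydrogel and 127 in 6 cells of untreated, at 54.2 (41.6 to 69.5), 135 (121 to 150) and 215 (180 to 256) CPM. The untreated value rested on 1 cell with 68.5% of the UMIs. The log2 ratio was -1.32 (-1.73 to -0.92) for CO hydrogel over hydrogel and -1.99 (-2.45 to -1.54) for CO hydrogel over untreated and -0.67 (-0.97 to -0.37) for hydrogel over untreated. The last ratio turned to 0.78 at clustering resolution 2, 0.53 in thinned cells and 0.23 as the mean of per-cell CPM, so the order of hydrogel and untreated was not settled. The ratio for CO hydrogel over untreated kept its sign but ranged from -2.33 to -0.09 over the alternatives. Within the class, Il17a was detected in 9 of 14, 21 of 25 and 6 of 6 Il17f-positive cells. The T or NK-like class held 82.7%, 89.5% and 58.5% of the Il17f UMIs of all kept cells. Outside it, cluster 6 of the macrophages, led by Spp1, held 4, 23 and 65 UMIs in 3, 11 and 10 cells. Of the 65 in untreated, 50 lay in 1 cell, and Cd3e was detected in no Il17f-positive cell of this cluster. Over all kept cells, Il17a was detected in 13 of 23, 22 of 50 and 7 of 30 Il17f-positive cells.

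Genes of type 17 lymphocytes other than the members gave a mixed picture in the T or NK-like class. Of 20 listed genes, 15 could be measured for CO hydrogel over hydrogel, of which 1 was at least 2-fold higher and 3 lower, beside 2.63% and 6.65% of all genes. Over untreated, CO hydrogel had 3 higher and 2 lower of 13, beside 6.79% and 4.61%, and for hydrogel over untreated 3 higher and 1 lower of 14, beside 9.31% and 2.48%. The medians were 0.31, 0.24 and 0.07, and those of all genes -0.11, 0.00 and 0.10. Leaving out genes over 5 times higher in another class gave medians of -0.10, -0.01 and 0.04. For CO hydrogel over hydrogel, 0 were then higher and 3 lower of 13. For CO hydrogel over untreated it was 1 higher and 2 lower of 11, and for hydrogel over untreated 3 higher and 1 lower of 13. Rora, a ROR factor of type 17 cells, stood at 211 CPM in CO hydrogel, 226 in hydrogel and 212 in untreated, and Ccr6 at 196, 129 and 166. Irf4, a factor that IL-17 production needs in mice, stood at 49.8, 107 and 112 CPM, a log2 ratio of -1.10 (-1.54 to -0.69) for CO hydrogel over hydrogel.

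Il22, the partner cytokine of type 17 cells that acts on epithelium, had 6 UMIs in 4 cells of CO hydrogel, 45 in 11 cells of hydrogel and 82 in 7 cells of untreated, where 73.2% came from 1 cell. The log2 ratio for CO hydrogel over hydrogel was -1.69 (-3.21 to -0.46). Il17a was detected in 0 of 4, 2 of 11 and 3 of 7 Il22-positive cells. Among genes of other lymphocyte types, Ifng, the type 1 cytokine, had 7 UMIs in CO hydrogel, 385 in hydrogel and 0 in untreated, a log2 ratio of -4.57 (-5.89 to -3.51) for CO hydrogel over hydrogel. Hydrogel was thus highest for both Il17a and Ifng, though its Ifng UMIs lay in 39 cells and 5 of these held 64.9% of them. Foxp3, the regulatory T-cell factor, stood at 63.8, 47.5 and 52.6 CPM, and the interval of each of its ratios included 0. Of 16 measured genes of this list, 0 were at least 2-fold higher and 4 lower for CO hydrogel over hydrogel, beside 2.63% and 6.65% of all genes, and 5 higher and 0 lower for hydrogel over untreated, beside 9.31% and 2.48%.

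Il17ra, the receptor chain shared across the IL-17 family, was found in every class of at least 50 cells in a library, and its level differed strongly between libraries in neutrophil-like cells. There it had 141 UMIs in CO hydrogel, 789 in hydrogel and 501 in untreated, at 238 (200.3 to 281), 216 (201 to 231) and 43.1 (39.4 to 47.1) CPM. The intervals of the gel libraries overlapped and both lay above untreated. The log2 ratio was 0.14 (-0.13 to 0.40) for CO hydrogel over hydrogel, 2.46 (2.18 to 2.74) for CO hydrogel over untreated and 2.32 (2.16 to 2.49) for hydrogel over untreated, or 1.67 and 1.44 relative to the median gene of those pairs. At least 2-fold higher were 40.4% of genes in CO hydrogel over untreated and 43.2% in hydrogel over untreated. The 10 genes with the most UMIs took 30.3%, 31.3% and 38.7% of the class's UMIs in CO hydrogel, hydrogel and untreated, and the part of this in the ratios was not tested.

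Within clusters the Il17ra difference was smaller. Cluster 16 stood at 248.8, 253 and 149.9 CPM in CO hydrogel, hydrogel and untreated, a log2 ratio of 0.73 (0.42 to 1.04) for CO hydrogel over untreated and 0.76 (0.56 to 0.96) for hydrogel over untreated. Cluster 17 stood at 37.2 CPM in hydrogel and 14.0 in untreated, a log2 ratio of 1.42 (0.62 to 2.14), and cluster 18 at 109 and 42.0 CPM. Of the 3 clusters, cluster 17, with the highest Il23a level, had the lowest Il17ra level, and hydrogel was above untreated in each. Cluster 24 stood at 113 CPM in hydrogel and 124 in untreated. Thinned to 1000 UMIs, 22.1%, 18.1% and 4.24% of neutrophil-like cells had an Il17ra UMI in CO hydrogel, hydrogel and untreated.

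In the other named classes no Il17ra ratio of a whole class reached 2-fold. Fibroblast-like cells stood at 51.7 CPM in CO hydrogel, 55.1 in hydrogel and 51.2 in untreated, and the 3 log2 ratios, -0.09, 0.02 and 0.11, had intervals that included 0, as did -0.09, -0.02 and 0.07 without cells that share a barcode. Its clusters were less alike: cluster 13 stood at 76.4, 115 and 59.5 CPM, a log2 ratio of -0.59 (-0.81 to -0.38) for CO hydrogel over hydrogel and 0.95 (0.74 to 1.17) for hydrogel over untreated. Macrophage or monocyte-like cells stood at 69.7, 54.1 and 58.5 CPM, with log2 ratios of 0.37 for CO hydrogel over hydrogel, 0.25 for CO hydrogel over untreated and -0.11 for hydrogel over untreated. Within that class, cluster 8 stood at 98.95, 47.9 and 70.4 CPM, a log2 ratio of 1.05 (0.74 to 1.35) for CO hydrogel over hydrogel. The Fcnb cluster 9 stood at 135, 108 and 51.8 CPM, a log2 ratio of 1.38 (1.07 to 1.69) for CO hydrogel over untreated and 1.06 (0.79 to 1.34) for hydrogel over untreated. T or NK-like cells stood at 80.4, 65.2 and 54.3 CPM, endothelial-like at 31.9, 43.0 and 34.3, mural-like at 25.95, 24.98 and 27.0, and keratinocyte-like at 17.98, 17.4 and 19.6. In proliferating-like cells it stood at 34.3 CPM in CO hydrogel and 53.6 in untreated, a log2 ratio of -0.65 (-1.13 to -0.18).

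Il17rc, the second chain of the receptor for IL-17A and IL-17F, was found mainly in structural cells. Keratinocyte-like cells stood at 30.5 CPM in CO hydrogel, 30.9 in hydrogel and 24.4 in untreated, fibroblast-like cells at 18.6, 14.5 and 25.9, mural-like at 15.0, 15.3 and 15.5, and endothelial-like at 11.4, 10.6 and 9.52. Macrophage or monocyte-like cells stood at 0.713, 0.958 and 0.574 CPM, neutrophil-like cells had 1, 6 and 7 UMIs and T or NK-like cells 1, 5 and 0. The level in macrophage or monocyte-like cells was thus below 1 CPM in each library. Both chains were detected together in 6.64%, 9.73% and 17.98% of fibroblast-like cells and in 8.0%, 14.7% and 13.0% of keratinocyte-like cells, against 0.126%, 0.214% and 0.324% of macrophage or monocyte-like cells. The order among fibroblast-like cells followed their median depths of 9169, 13459 and 16285 UMIs.

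**Figure D4:**
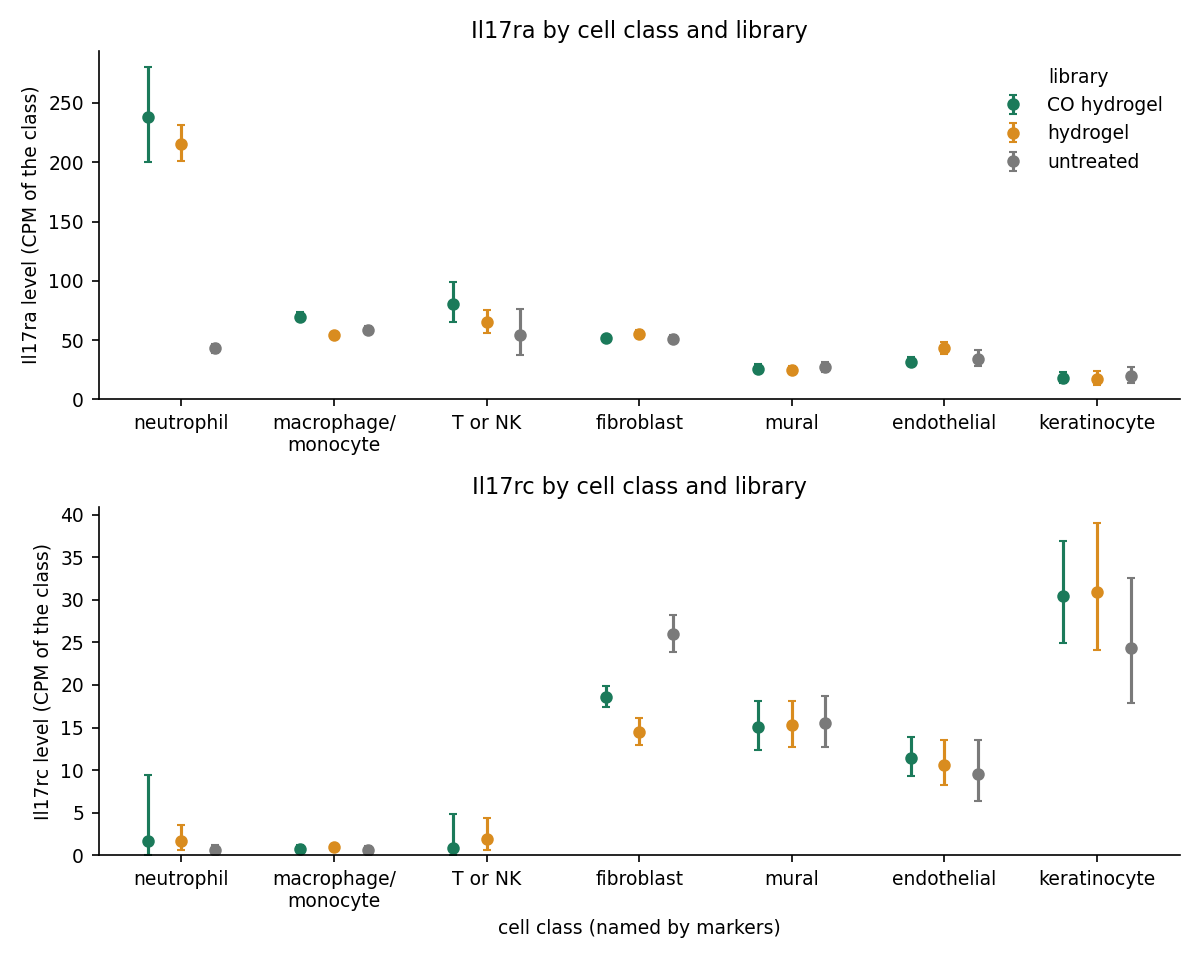
Levels of Il17ra (top) and Il17rc (bottom) in CPM by cell class and library, with exact Poisson 95% intervals. Il17ra is present in all classes and separates untreated (43.1 CPM) from both gels (238 and 216 CPM) in neutrophil-like cells; Il17rc is at or above 9.52 CPM in structural classes and below 2 CPM in neutrophil-, macrophage or monocyte- and T or NK-like cells.

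In fibroblast-like cells Il17rc was lower in both gel libraries than in untreated, with a log2 ratio of -0.48 (-0.63 to -0.32) for CO hydrogel and -0.84 (-1.04 to -0.64) for hydrogel, and 0.36 (0.18 to 0.55) for CO hydrogel over hydrogel. The class was again made of different clusters: cluster 13, led by Gap43 and Dpp4, held 17.2% of it in CO hydrogel, 8.58% in hydrogel and 44.7% in untreated, and cluster 12, led by Cilp, held 62.8%, 48.7% and 30.5%. In cluster 0, which held 20.04%, 42.7% and 24.8% of the class, Il17rc stood at 11.2, 7.53 and 11.9 CPM, a log2 ratio of 0.57 (0.14 to 0.9987) for CO hydrogel over hydrogel and -0.66 (-1.16 to -0.15) for hydrogel over untreated. In cluster 12 it stood at 20.01, 19.6 and 18.5 CPM and the intervals of its ratios included 0. In cluster 13 it stood at 22.8, 24 and 35.8 CPM, a log2 ratio of -0.65 (-0.90 to -0.40) for CO hydrogel over untreated. Without cells that share a barcode the class ratios were 0.37 for CO hydrogel over hydrogel, -0.49 for CO hydrogel over untreated and -0.85 for hydrogel over untreated. In keratinocyte-like cells the interval of each Il17rc ratio included 0, with and without those cells.

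Components of the IL-17 receptor pathway in fibroblast-like cells stayed within 2-fold, as most genes of that class did. Of 15 listed genes, 14 could be measured and 0 were at least 2-fold higher or lower in any of the 3 pairs, beside 3.3% and 3.3% of all genes for CO hydrogel over hydrogel, 9.0% and 3.55% for CO hydrogel over untreated and 8.33% and 3.15% for hydrogel over untreated. The median log2 ratios were -0.19, 0.10 and 0.17. Traf3ip2, the adaptor Act1, stood at 9.81 CPM in CO hydrogel, 7.41 in hydrogel and 9.54 in untreated. Nfkbiz, a transcriptional cofactor that IL-17 induces, stood at 475, 537 and 562 CPM. Zc3h12a, an RNase that restrains IL-17 signals, stood at 88.5, 91.6 and 95.1 CPM. Of 7 other IL-17 family genes, 5 could be measured, with 0 at least 2-fold higher and 1 lower for CO hydrogel over hydrogel, 2 and 1 for CO hydrogel over untreated, and 1 and 0 for hydrogel over untreated (medians 0.00, 0.11 and 0.28). Il17d, a ligand of tissue cells, was highest in CO hydrogel, at 24.5, 14.8 and 9.41 CPM, a log2 ratio of 1.38 (1.17 to 1.60) for CO hydrogel over untreated.

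Target genes of IL-17 in fibroblast-like cells were more often lower than higher with CO hydrogel. Of 27 listed genes, 22 could be measured for CO hydrogel over hydrogel and 1 was at least 2-fold higher and 8 lower, with a median log2 ratio of -0.63 beside -0.01 for all genes. For CO hydrogel over untreated 3 were higher and 12 lower of 23, with a median of -1.03 beside 0.16, and for hydrogel over untreated 3 were higher and 7 lower of 22, with a median of -0.53 beside 0.17. Of all genes, 3.3%, 9.0% and 8.33% were at least 2-fold higher in these 3 pairs, and 3.3%, 3.55% and 3.15% lower. Many of these genes stood over 5 times higher in another class, and neutrophil markers summed to 144, 348 and 583 CPM in the fibroblast-like cells of CO hydrogel, hydrogel and untreated; their part in the counts was not tested. With those genes left out, 0 were higher and 3 lower of 11 for CO hydrogel over hydrogel (median -0.29), 0 higher and 5 lower of 10 for CO hydrogel over untreated (-0.98), and 1 higher and 3 lower of 11 for hydrogel over untreated (-0.44). Most of these genes also answer to other signals such as IL-1 and TNF.

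Lcn2, an iron-binding antimicrobial protein and a standard IL-17 readout, stood at 63.8 CPM in CO hydrogel, 119 in hydrogel and 765 in untreated fibroblast-like cells, a log2 ratio of -0.90 (-0.98 to -0.83) for CO hydrogel over hydrogel and -3.58 (-3.64 to -3.53) for CO hydrogel over untreated. Cxcl6, a neutrophil attractant, was instead highest in hydrogel, at 76.2, 375 and 82.1 CPM, a log2 ratio of -2.30 (-2.36 to -2.24) for CO hydrogel over hydrogel. Il6 and Ptgs2, the prostaglandin-forming enzyme, were about equal in the gel libraries and lower there than in untreated, at 613, 628 and 1248 CPM for Il6 and 1441, 1382 and 2766 CPM for Ptgs2. Complement C3 was lowest in CO hydrogel, at 19.98, 48.5 and 49.5 CPM. Cxcl1, the main chemokine of the group, stood at 5192, 5323 and 6017 CPM, a log2 ratio of -0.04 for CO hydrogel over hydrogel. The matrix-degrading enzymes Mmp3 and Mmp13 went the other way, at 158, 107 and 14.5 CPM and at 87.1, 38.2 and 17.7 CPM, though both stood over 5 times higher in another class. Without cells that share a barcode the Lcn2 ratios were -0.92 for CO hydrogel over hydrogel, -3.61 for CO hydrogel over untreated and -2.70 for hydrogel over untreated.

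**Figure D5:**
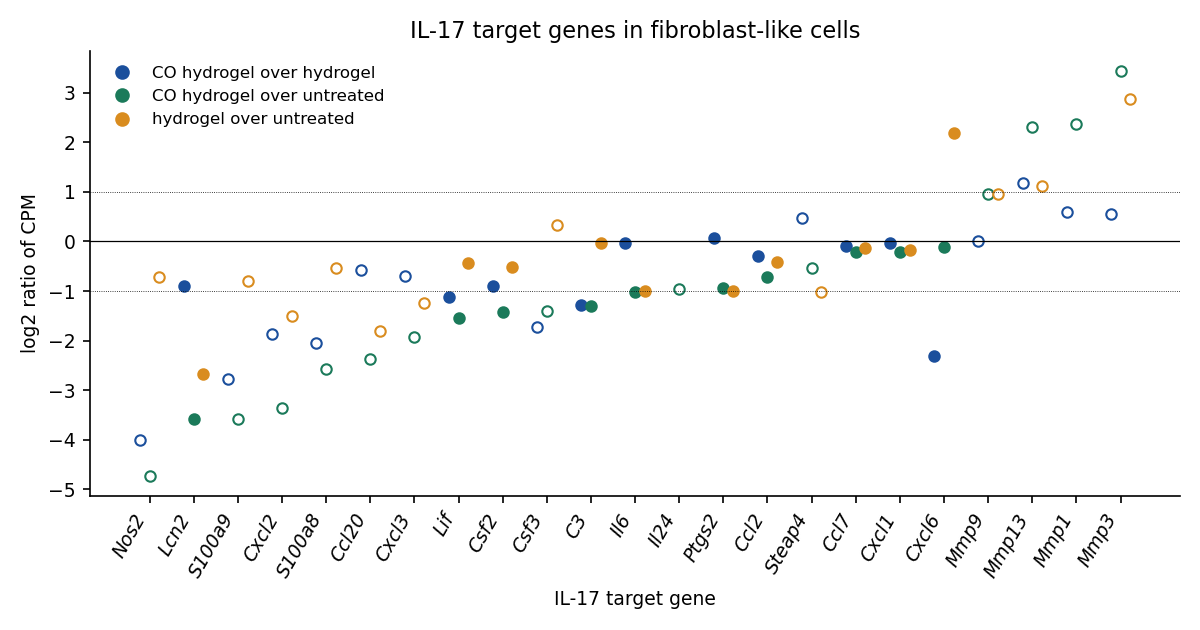
Log2 ratio of CPM for each measured IL-17 target gene in fibroblast-like cells, in the 3 pairs of libraries, with dotted lines at 2-fold; open circles mark genes over 5 times higher in another class. Lcn2 lies at -0.90, -3.58 and -2.68, Cxcl6 at -2.30, -0.11 and 2.19, and Mmp3 at 0.56, 3.44 and 2.88 for CO hydrogel over hydrogel, CO hydrogel over untreated and hydrogel over untreated.

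In keratinocyte-like cells, the other classic responders to IL-17, several epidermal targets were highest in hydrogel. Of 23 measured genes, 3 were at least 2-fold higher and 7 lower for CO hydrogel over hydrogel, beside 3.19% and 1.64% of all genes. Over untreated, CO hydrogel had 6 higher and 7 lower, beside 6.2% and 2.85%, and for hydrogel over untreated 7 were higher and 9 lower, beside 4.76% and 4.84%. The median log2 ratios were -0.36, -0.42 and -0.60, and those of all genes 0.09, 0.03 and -0.07. Many of these genes stood over 5 times higher in another class, and without them the medians against untreated changed sign. CO hydrogel over untreated then had 5 higher and 0 lower of 9 (median 1.38). Hydrogel over untreated had 6 higher and 3 lower of 10 (2.16), and CO hydrogel over hydrogel 3 higher and 4 lower of 10 (-0.28). Defb4, a beta-defensin, had 51 UMIs in 12 of 250 cells of CO hydrogel, 202 in 14 of 109 cells of hydrogel and 0 in 100 untreated cells. Il36g, an IL-1 family cytokine of the epidermis, had 160 UMIs in 39 cells, 222 in 26 cells and 13 in 9 cells, and Il36a had 114, 85 and 0 UMIs. Untreated keratinocyte-like cells thus had little or none of these 3 genes. All 3 rested on few cells. In hydrogel the top 5 cells held 91.58% of Defb4, 77.03% of Il36g and 77.65% of Il36a UMIs. In CO hydrogel the top 5 cells held 76.47%, 48.75% and 64.91%.

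The calprotectin chain S100a8 stood at 6427, 13900.0 and 2357 CPM in keratinocyte-like cells of CO hydrogel, hydrogel and untreated, a log2 ratio of -1.11 (-1.14 to -1.09) for CO hydrogel over hydrogel and 1.45 (1.40 to 1.49) for CO hydrogel over untreated. Ccl20, which attracts Ccr6-bearing type 17 cells, stood at 386, 502 and 148 CPM. Both rested on few cells: the top 5 cells held 31.8%, 52.3% and 46.6% of S100a8 UMIs and 39.3%, 62.9% and 67.1% of Ccl20 UMIs. As the mean of per-cell CPM the log2 ratio for CO hydrogel over untreated became -0.26 for S100a8 and -0.13 for Ccl20. The Ccl20 ratio also turned for CO hydrogel over hydrogel, to 0.21 in thinned cells and 0.15 as the per-cell mean, and for hydrogel over untreated, to -0.0297 and -0.28, so no order of the libraries held for Ccl20. Neutrophil markers, a list that holds S100a8 and S100a9, summed to 12180.0, 26530.0 and 4891 CPM in this class, with Retnlg and Ngp at 0 in both gel libraries and Ngp at 0 in untreated; their part was not tested. Without cells that share a barcode the log2 ratio for CO hydrogel over hydrogel was -1.07 for S100a8, -0.54 for Ccl20, -1.03 for Il36g and -2.52 for Defb4, and for CO hydrogel over untreated 1.43 for S100a8, 1.12 for Ccl20 and 3.03 for Il36g.

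Over the 24 sums of a class in a library with at least 50 cells, 12026 genes were compared with each member by Pearson's r of log2(CPM + 1). These sums share libraries and depth, so r is a description. They also add up whole classes, so a high r does not place a gene in the same cells as the member. The genes most like Il23a were Ifit1bl (0.91), Sirpd, Tcp11, Rgsl1 and Pglyrp1 (0.90), and those most like Il17a were Cd96 (0.98), Il2rb, Prf1, Cd3g and Ly49s6. Il17f was most like Timd2 (0.99), Ccr7, Sh2d1a, Klrc2 and Camk4. Il17ra was most like Tmem268 (0.86), Selplg, Plekho2, Vsir and Synj1, and Il17rc most like Slc6a8 (0.97), Irx3, Enah, Tsen34l1 and Pls3. The nearest genes of Il17ra were less like it than those of the other 4 members.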

How the data were processed

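The authors deposited raw UMI counts per gene and cell barcode for 3 libraries (10x Genomics 3' chemistry). The file headers name Cell Ranger 6.0.1, while Seurat 4.2.0, DESeq 1.38.0, Cell Ranger 7.0.0 and the rat build rn6 come from the submitters' processing notes; how many animals were pooled is not given in the sources used here. No barcode in the deposited matrices had fewer than 500 UMIs. A cell was kept from 500 UMIs and 300 genes upward if mitochondrial counts did not pass 20%. Doublets were scored with Scrublet in scanpy 1.11.5, whose own threshold marked 550, 399 and 0 cells in CO hydrogel, hydrogel and untreated; the 1634, 1466 and 1083 cells of highest score were therefore removed, at 0.8% per 1000 cells. Counts were scaled to 10000, and 30 components of 2000 variable genes, without the 7 members, were clustered by the Leiden method at resolution 1, on the libraries together and without batch correction. Of 26 clusters, 20 were named from marker lists and called X-like; a name needed at least 3 markers in 20% of cells, a limit set after seeing the data, and a score of 0.2. The other 6 stayed unnamed for a low score, for more leading markers of another class, or, as cluster 24, for low relative depth with none of its class's markers among the 10 leading genes. Features are named by the symbols in the files. Listed genes not found by symbol were not analysed here.

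For each class in each library, the UMIs of a gene were added up and expressed per 1000000 UMIs of that class (CPM). Levels have exact Poisson, shares exact Clopper-Pearson and ratios exact conditional binomial intervals, all at 95%. A ratio needed at least 20 UMIs over both libraries and, added after seeing the data, an expected count of at least 3 in the smaller library. A count of 0 was replaced by 3 counts to give a bound. Named genes were the 7 members, for each member with at least 100 UMIs the 5 genes of highest r, the 10 genes highest in Il17a-positive cells by their smallest ratio over the libraries, and genes of 7 lists. The members and lists were chosen with earlier results of these data known. The steps were tested on simulated data. Promoter sequences are RefSeq's. Alternatives tried were a stricter cell filter, no doublet removal, resolution 2, each library clustered by itself, the members among the clustering genes, low-depth clusters counted with their best class, thinned cells, per-cell means, 0.5 counts added, TMM factors (edgeR 4.0.16, R 4.3.3), and, chosen after seeing the data, single clusters and leaving out cells that share a barcode. Python 3.11.15, scipy 1.17.1 and pandas 2.3.3 were used.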

Additional observations from a re-analysis of the deposited data

Results flagged for a closer look

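Il17ra was higher in neutrophil-like cells and, with an interval below 0, lower in 1 other named class in each of 2 pairs of libraries. For CO hydrogel over untreated its log2 ratio was 2.46 in neutrophil-like and -0.65 in proliferating-like cells, a difference of 3.11. For hydrogel over untreated it was 2.32 in neutrophil-like and -0.11 in macrophage or monocyte-like cells, a difference of 2.43. The value in macrophage or monocyte-like cells turned to 0.0691 in thinned cells, and in T or NK-like cells the ratio was 0.57 for CO hydrogel and 0.27 for hydrogel over untreated. Neither difference was tested, since each group is 1 library. The median gene of neutrophil-like cells stood 0.80 higher in CO hydrogel and 0.88 higher in hydrogel than in untreated, and clusters 16, 17 and 18 held different shares of that class; the part of either in these values was not tested.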

How the results depend on the processing

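The log2 ratio of Il23a in neutrophil-like cells for CO hydrogel over hydrogel kept its sign, at -1.52 with the stricter cell filter and -1.13 with each library clustered by itself. For CO hydrogel over untreated it was -1.78 with the stricter filter, -2.29 with no doublets removed, -2.32 with each library by itself, -2.30 with low-depth clusters counted, -1.25 in cluster 16 alone and -3.83 with TMM factors. For hydrogel over untreated it was -0.26, -0.50, -1.19, -0.53 and -1.64 under the same settings, and it turned to 0.47 in cluster 16 alone. The log2 ratio of Il17a in T or NK-like cells for CO hydrogel over hydrogel was -2.42 with the stricter filter, -1.39 with no doublets removed, -1.82 at resolution 2 and -1.95 in cluster 20 alone. For CO hydrogel over untreated it was -0.26 with each library by itself and -0.32 as the mean of per-cell CPM, and turned to 0.33 in thinned cells. For hydrogel over untreated it was 0.68 with no doublets removed, 1.20 at resolution 2, 1.46 with each library by itself, 1.87 in thinned cells, 1.33 in cluster 20 alone and 1.24 as the mean of per-cell CPM. The cause of these shifts was not tested. Of the other ratios, that of Il17f for hydrogel over untreated turned to 0.78 at resolution 2, 0.53 in thinned cells and 0.23 as the per-cell mean. In macrophage or monocyte-like cells Il17ra turned to -0.13 for CO hydrogel over untreated with each library by itself and to 0.0691 for hydrogel over untreated in thinned cells. In keratinocyte-like cells S100a8 for CO hydrogel over untreated turned to -0.42 in thinned cells and -0.26 as the per-cell mean. Ccl20 there turned to 0.21 and 0.15 for CO hydrogel over hydrogel and to -0.0297 and -0.28 for hydrogel over untreated in thinned cells and as the per-cell mean, and to -0.13 for CO hydrogel over untreated as the per-cell mean. In all, 396 other values stayed within the counting interval, 95 moved beyond it with the same sign and 12 turned. At 2000 in place of 1000 UMIs per cell, Il23a was detected in 10.0%, 22.2% and 28.8% of neutrophil-like cells of CO hydrogel, hydrogel and untreated, with 20 cells left in CO hydrogel. The stricter filter left too few untreated T or NK-like cells for a value. No paired analysis was possible because each group is 1 library. Limits are the 107 T or NK-like cells and 100 keratinocyte-like cells of untreated, the 445 neutrophil-like cells of CO hydrogel, and single cells that hold most of a cytokine's UMIs.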
